A study of Mus musculus with 6 samples.

Results

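The genes described here are 10 genes of the interleukin-6 (IL-6) receptor family and of the JAK-STAT3 pathway that the receptors feed. They were chosen by name, as members of the pathway, when earlier results of these data were known: the receptor genes Il6ra, Il6st, Lifr, Osmr and Cntfr, the kinase genes Jak1 and Jak2, the transcription factor gene Stat3, and the STAT3-induced genes Socs3 and Pim1. All 10 were found among the 49315 genes of the count files, and all 10 had enough reads to be tested, among 17185 tested genes. The samples were cerebral cortex of wild type mice, 3 libraries in each of 2 groups. At 21 days of age, mice of the shScr group had received the vector AAV-PHP.eB-Gfap-GFP-shScr, which carries a scrambled short hairpin RNA, and mice of the shFabp7 group AAV-PHP.eB-Gfap-GFP-shFABP7, whose hairpin targets Fabp7, a fatty acid-binding protein gene of astrocytes. Both vectors put the hairpin under a Gfap promoter, which is mainly active in astrocytes, while RNA was taken from whole tissue. From 4 months of age, mice of both groups were given lipopolysaccharide (LPS, a bacterial cell wall component) at 1 mg/kg once a week, 3 times, and were harvested 24 h after the third. With LPS in both groups, the comparison is between hairpins under LPS, and no value below is a response to LPS.

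Cytokines of the IL-6 family signal through receptors that share the subunit gp130, encoded by Il6st. IL-6 binds the alpha receptor encoded by Il6ra, which then pairs with gp130; ciliary neurotrophic factor binds the alpha receptor encoded by Cntfr, which joins gp130 and the LIF receptor; oncostatin M uses gp130 with the receptor encoded by Osmr. The bound receptors activate JAK kinases, which phosphorylate STAT3, and STAT3 then induces its own inhibitor SOCS3 and the kinase PIM1. In the brain, STAT3 signalling in astrocytes is known for its part in reactive gliosis, and endothelial cells, microglia and neurons use the pathway too. RNA levels do not show phosphorylation, so the activity of the pathway was not measured.

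The start regions of Socs3 and Pim1 are shown first because these genes had the largest differences of the 10. The sequences are from RefSeq (GRCm38.p6), 250 bases before to 50 after the start site, 5′ to 3′ on the gene's strand. Capitals mark the STAT-type motif TTCNNNGAA, which reads the same on both strands. The Socs3 window is chr11:117969317-117969616 (minus strand) and the Pim1 window chr17:29490535-29490834 (plus strand).
Socs3: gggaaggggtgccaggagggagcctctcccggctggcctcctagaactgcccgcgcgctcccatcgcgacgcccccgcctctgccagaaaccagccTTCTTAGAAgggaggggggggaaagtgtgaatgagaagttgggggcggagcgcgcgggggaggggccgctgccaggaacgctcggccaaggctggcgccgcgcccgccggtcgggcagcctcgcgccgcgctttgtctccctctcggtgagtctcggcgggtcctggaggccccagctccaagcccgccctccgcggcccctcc
Pim1: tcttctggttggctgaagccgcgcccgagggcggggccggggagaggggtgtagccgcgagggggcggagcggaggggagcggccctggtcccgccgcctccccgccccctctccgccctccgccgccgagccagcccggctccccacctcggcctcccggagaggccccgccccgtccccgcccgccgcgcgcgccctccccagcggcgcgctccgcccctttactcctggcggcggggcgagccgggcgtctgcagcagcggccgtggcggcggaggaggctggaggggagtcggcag
The Socs3 window holds 1 match, TTCTTAGAA, which starts 154 bases before the RefSeq start site, at 117969512 to 117969520 on chromosome 11. The gene as counted spans 117966079 to 117970047 on the minus strand, so its start site differs from that of RefSeq. The match lies inside that span. The Pim1 window shown holds no match, and neither do the other 15 windows of the 10 genes, so 1 of 17 windows (5.88%) has the motif. Of all 32851 windows in the table, 2726 (8.30%) have it. Cntfr alone has 6 of the 17 windows, and some of these overlap, so the windows are not separate observations. By gene, Socs3 alone of the 10 has a match. The stricter form TTCCNGGAA is in 0 of the 17 and in 377 (1.15%) of all windows. A match is a description of letters, and binding of STAT3 was not measured.

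Total counts ranged from 16914012 to 18991235 per library. Fabp7, the targeted gene, had 15.2 to 26.3 CPM (reads of a gene relative to its library's TMM-scaled total) in shScr and 2.49 to 5.56 CPM in shFabp7. Its log2 fold change was -2.31 ± 0.35 (SE), with an adjusted p of 0.0704 in edgeR's quasi-likelihood test and 3.32e-12 in DESeq2. The shScr libraries stood further apart from each other than the shFabp7 libraries did (Pearson correlations of log2 CPM across genes of 0.983 to 0.987 against 0.989 to 0.990). The tissue label was met by markers of astrocytes, which summed to 4733 to 5221 CPM in shScr and 4962 to 5461 CPM in shFabp7, and of neurons. Markers of cortical excitatory neurons summed to 4413 to 6285 CPM in shScr and 7042 to 8172 CPM in shFabp7, with the lowest sum in shScr library 1, and markers of the ependyma and choroid plexus to 14.7 to 34.3 and 9.24 to 16.2 CPM. Markers of neighbouring regions were uneven. Striatal markers summed to 458 to 1126 CPM in shScr and 394 to 1243 CPM in shFabp7, highest in shScr library 1 and shFabp7 library 3. Hippocampal neuron markers summed to 348 to 515 CPM in shScr and 314 to 354 CPM in shFabp7. In bulk tissue, fewer cells of a type and less RNA per cell cannot be told apart. Whether each library came from its own animal is not given in the labels. By sex-linked genes, the shScr libraries were, in order, male, male and female, and the shFabp7 libraries male, female and female. Each group therefore held RNA of more than 1 animal. The p-values cover only the spread between these 6 libraries, part of which may be technical.

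None of the 10 genes passed the threshold (adjusted p below 0.05 over all 17185 genes) in edgeR, DESeq2 or limma-voom. In edgeR, 20 of all genes tested passed (0.116%), and DESeq2 called 703 of 16538 (4.25%, with 1.9% lower and 2.35% higher). With limma-voom, 30 of 17185 genes were called in either direction. At an unadjusted p below 0.05, edgeR counted 3 of the 10 (Socs3 and Pim1 lower, Cntfr higher in shFabp7), where 16.8% of all genes tested reached that level (8.32% lower and 8.44% higher). The groups did not overlap for 4 of the 10 (Socs3, Pim1 and Il6st lower, Cntfr higher), against 22.9% of all genes tested. The median log2 fold change of the 10 was -0.08, with 6 below 0, against -0.0065 and 51.5% below 0 over all genes tested. The median of the 10 was 0.0030 with a regional score as a covariate, a score of cortical excitatory markers against markers of neighbouring regions.

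**Figure D1:**
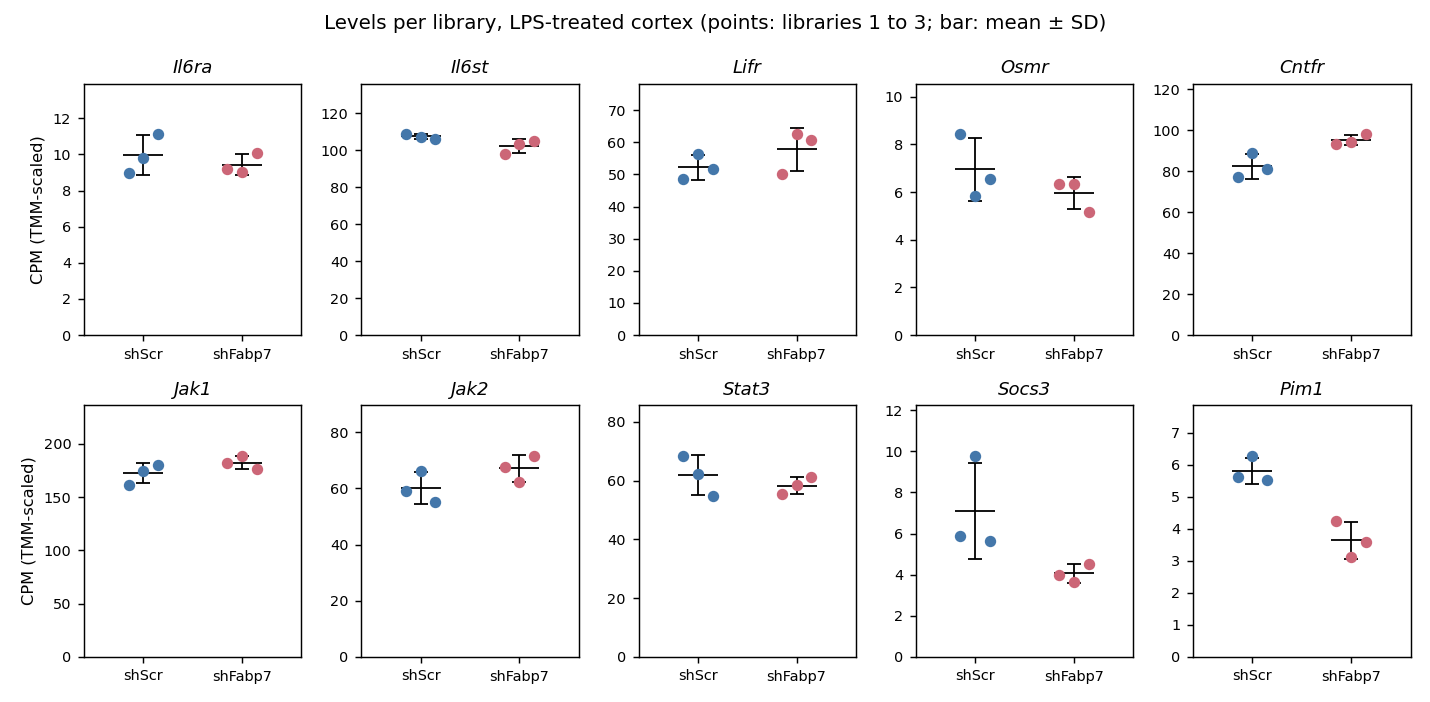
TMM-scaled level (CPM, y axis, from 0) of the 10 genes in the 3 shScr and 3 shFabp7 libraries; points are libraries 1 to 3 from left to right, and bars give the mean ± SD. All 3 shFabp7 libraries lie below all 3 shScr libraries for Socs3 (3.65 to 4.54 against 5.62 to 9.79 CPM) and Pim1 (3.10 to 4.24 against 5.51 to 6.28 CPM).

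Per exon length, the order of levels ran from Cntfr to Osmr. Cntfr averaged 31.9 ± 2.93 CPM per kb of exon (SD, n = 6 libraries), Jak1 24.6 ± 1.26, Jak2 12.7 ± 1.20 and Il6st 9.44 ± 0.353 CPM per kb. Stat3 followed at 6.30 ± 0.538 and Lifr at 5.33 ± 0.560 CPM per kb. Their ranges overlapped (5.74 to 7.19 and 4.70 to 6.06), although Stat3 was above Lifr in each of the 6 libraries. Socs3 at 1.93 ± 0.775 and Pim1 at 1.79 ± 0.479 CPM per kb could not be ordered, since Socs3 was the higher in 3 of 6 libraries. Il6ra had 1.12 ± 0.0963 CPM per kb, with a range that met that of Pim1, and Osmr came last at 0.532 ± 0.0901. The other neighbours in this order had ranges that did not overlap. The shared subunit Il6st was thus above the ligand-specific chains Il6ra and Osmr and below Cntfr, which is ligand-specific too. Per exon length, the Il6st level was 8.47 ± 1.01 times that of Il6ra in shScr and 8.44 ± 0.457 times in shFabp7 (SD, n = 3 each). Against Osmr it was 17.3 ± 3.00 and 18.9 ± 2.81 times. The exon length of a gene need not be that of the transcripts present, so the order between genes is approximate.

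**Figure D2:**
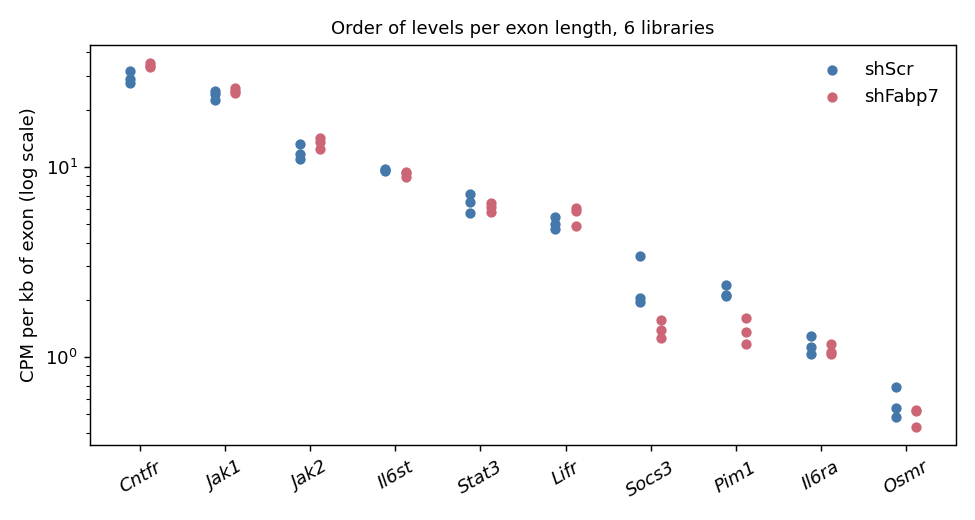
Level of each gene per kb of exon (CPM per kb, log axis), genes ordered by their mean over 6 libraries; points are single libraries of shScr and shFabp7. Cntfr lies at 27.7 to 35.3 CPM per kb and Osmr at 0.427 to 0.696.

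Among the alpha receptors, Cntfr had the higher level and the clearer difference. Cntfr (chromosome 4, 41657498 to 41697089, minus strand, GRCm38), which encodes the GPI-anchored receptor of ciliary neurotrophic factor, had 77.1, 89.0 and 81.0 CPM in shScr libraries 1 to 3 and 93.4, 94.0 and 98.2 CPM in shFabp7 libraries 1 to 3. Every shFabp7 library was above every shScr library. The log2 fold change was 0.21 ± 0.07 (SE) with a 95% interval of 0.06 to 0.36, and its adjusted p of 0.182 in edgeR did not pass the threshold (0.197 in DESeq2). The summed excitatory neuron markers had the same order of groups, with 9 of 9 markers above 0 and none at 0 in all libraries. With the regional score as a covariate the Cntfr value was 0.12, and without shScr libraries 1 and 3 it was 0.097. Without shScr library 2 it was 0.27, with an adjusted p of 0.0450 in edgeR.

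Il6ra (chromosome 3, 89864059 to 89913196, minus strand) encodes the alpha receptor of IL-6, which also occurs as a soluble form. It had 8.98, 9.79 and 11.1 CPM in shScr and 9.21, 9.001 and 10.1 CPM in shFabp7. The groups overlapped, and the log2 fold change was -0.08 ± 0.13 (SE), with a 95% interval of -0.37 to 0.21 and an adjusted p of 0.802 in edgeR. Without shScr library 3 it was 0.0081. Because Cntfr and Il6ra had values of opposite sign, the ratio of Cntfr to Il6ra per exon length was 25.8 ± 2.91 in shScr and 31.4 ± 1.12 in shFabp7 (SD, n = 3 each), with ranges of 22.6 to 28.2 and 30.2 to 32.4; the difference between these ratios was not tested.

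The signalling chains differed little between the groups. Il6st (chromosome 13, 112464070 to 112510086, plus strand) had 109, 107 and 106 CPM in shScr and 97.7, 104 and 105 CPM in shFabp7. The groups did not overlap, but shFabp7 library 3 and shScr library 3 were close to each other. The log2 fold change was -0.07 ± 0.06 (SE), with an adjusted p of 0.542 in edgeR and a 95% interval of -0.20 to 0.05, which leaves room for a fall of up to 0.20 on the log2 scale. Lifr (chromosome 15, 7129559 to 7197489, plus strand), the partner of gp130 for LIF and for ciliary neurotrophic factor, had 48.6, 56.4 and 51.8 CPM in shScr and 50.2, 62.6 and 60.8 CPM in shFabp7. Its groups overlapped through shFabp7 library 1, and the log2 fold change was 0.15 ± 0.09 (SE), with a 95% interval of -0.06 to 0.36 and an adjusted p of 0.460 in edgeR. With the regional score the Lifr value was 0.019.

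Osmr (chromosome 15, 6813577 to 6874969, minus strand), the oncostatin M receptor chain, was the least abundant of the receptors. It had 8.44, 5.85 and 6.55 CPM in shScr and 6.34, 6.32 and 5.18 CPM in shFabp7. shScr library 1 stood above the other 5 libraries, which overlapped. The log2 fold change was -0.23 ± 0.18 (SE), with a 95% interval of -0.63 to 0.17 and an adjusted p of 0.561 in edgeR. The value rested on shScr library 1, without which it was -0.062, and it was above 0 without shScr libraries 1 and 3 (0.019) and when the regional score was a covariate (0.018).

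The kinase genes had values above 0 that did not pass the threshold. Jak1 (chromosome 4, 101152367 to 101265282, minus strand), the kinase bound to gp130, had 162, 175 and 181 CPM in shScr and 182, 189 and 176 CPM in shFabp7. The groups overlapped, with a log2 fold change of 0.08 ± 0.06 (SE), a 95% interval of -0.06 to 0.22 and an adjusted p of 0.560 in edgeR. Jak2 (chromosome 19, 29251828 to 29313080, plus strand), a kinase shared with other cytokine receptors, had 59.2, 66.2 and 55.1 CPM in shScr and 67.7, 62.2 and 71.6 CPM in shFabp7. Its groups overlapped as well, and its log2 fold change was 0.16 ± 0.08 (SE), with a 95% interval of -0.03 to 0.34 and an adjusted p of 0.362 in edgeR. The Jak1 value was -0.012 with the regional score, and the Jak2 value was 0.022 without shScr libraries 1 and 3.

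Stat3 (chromosome 11, 100885098 to 100939540, minus strand), the transcription factor gene of the pathway, had 68.5, 62.3 and 54.7 CPM in shScr and 55.3, 58.4 and 61.2 CPM in shFabp7. The shFabp7 libraries all lay within the shScr range. The log2 fold change was -0.08 ± 0.09 (SE), with a 95% interval of -0.28 to 0.11 and an adjusted p of 0.659 in edgeR, and it was 0.022 with the regional score. Stat3 shares 72 exon bases with Stat5a on the opposite strand; Stat5a had 242 reads in all against 6463 of Stat3.

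The STAT3-induced genes had the largest differences of the 10. Socs3 (chromosome 11, 117966079 to 117970047, minus strand) encodes the inhibitor that binds gp130 and JAK kinases and ends the signal. The libraries held 108, 184 and 103 Socs3 reads in shScr and 67, 60 and 85 in shFabp7. Levels were 5.88, 9.79 and 5.62 CPM in shScr and 4.005, 3.65 and 4.54 CPM in shFabp7. Every shFabp7 library was below every shScr library, and shScr library 2 stood well above the other shScr libraries. The means were 7.10 ± 2.34 and 4.06 ± 0.447 CPM (SD, n = 3 each), so the shFabp7 mean was 57.3% of the shScr mean. The log2 fold change was -0.80 ± 0.23 (SE), with a 95% interval of -1.32 to -0.28, and its adjusted p of 0.152 in edgeR did not pass the threshold (0.0710 in DESeq2). Without shScr library 2 the value was -0.50, with an adjusted p of 0.168 in edgeR. Without shScr libraries 1 and 3, only shScr library 2, the highest for Socs3, was left in its group, and the value was -1.26. With no filter on low counts the Socs3 value was -0.81 and passed (adjusted p of 0.00176 in edgeR).

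Pim1 (chromosome 17, 29490812 to 29496111, plus strand) encodes a serine/threonine kinase of cell survival. The libraries held 103, 118 and 101 Pim1 reads in shScr and 71, 51 and 67 in shFabp7. Levels were 5.61, 6.28 and 5.51 CPM in shScr and 4.24, 3.10 and 3.58 CPM in shFabp7. The shScr libraries lay close together and all above the shFabp7 libraries. The means were 5.80 ± 0.417 and 3.64 ± 0.574 CPM (SD, n = 3 each), 62.8% of the shScr level, with a log2 fold change of -0.67 ± 0.18 (SE), a 95% interval of -1.07 to -0.27 and an adjusted p of 0.128 in edgeR (0.0941 in DESeq2). The value stayed between -0.79 and -0.57 over the 16 alternatives, and it passed with no filter on low counts (adjusted p of 0.0284 in edgeR). Pim1 shares 468 exon bases with Gm26885 on the opposite strand, which had 23 reads in all against 511 of Pim1. The smallest p that an exact two-sided permutation test of 3 against 3 libraries can give is 0.1, which Socs3, Pim1, Cntfr and Il6st each reached. Any gene whose groups do not overlap reaches it, and 22.9% of all genes tested had such groups.

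**Figure D3:**
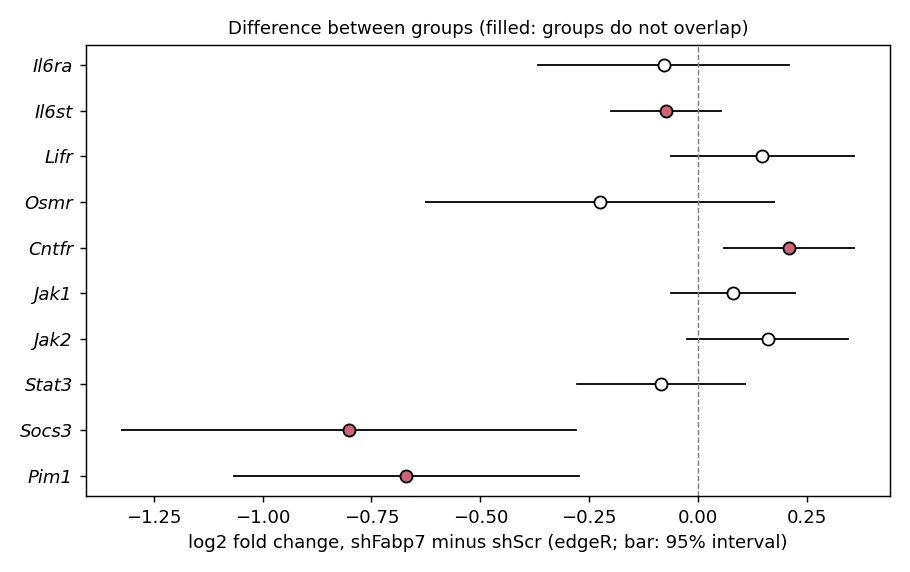
Log2 fold change of each gene, shFabp7 minus shScr (x axis), with its 95% interval from edgeR; filled points mark genes whose groups do not overlap. The intervals of Socs3 (-1.32 to -0.28), Pim1 (-1.07 to -0.27) and Cntfr (0.06 to 0.36) do not include 0, before any adjustment over genes.

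The level of Stat3 relative to its induced genes differed in the same direction for both. Per exon length, Stat3 was 2.81 ± 0.811 times Socs3 in shScr and 4.38 ± 0.416 times in shFabp7 (SD, n = 3 each), with ranges of 1.93 to 3.54 and 4.09 to 4.86. It was 2.96 ± 0.366 times Pim1 in shScr and 4.52 ± 0.824 times in shFabp7, with ranges of 2.75 to 3.38 and 3.61 to 5.21. These ratios did not overlap between the groups and were not tested. Socs3 and Pim1 did not overlap by themselves and Stat3 differed little, so the ratios largely restate the Socs3 and Pim1 differences. Across the 6 libraries, Socs3 and Pim1 had the highest of the 45 pairwise correlations among the 10 genes (Pearson r = 0.86 on log2 CPM, n = 6), and Osmr and Cntfr the lowest (r = -0.84). These correlations hold the group difference and any difference of composition between the libraries.

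Several gene lists also had values mostly below 0. Immediate-early genes, which cells switch on within minutes of stimulation, had values below 0 in 14 of 14 members, with a median of -0.78. Without shScr library 2 these were 12 of 14 and -0.51. Immediate-early genes summed to 610 to 1260 CPM in shScr and 594 to 659 CPM in shFabp7. Their sum was highest in shScr library 2, as was Socs3, and shScr library 1 lay within the shFabp7 range. Of the 14, only Fos passed in edgeR (adjusted p of 0.0382), and 8 were lower at an unadjusted p below 0.05, against 8.32% of all genes tested. DESeq2 called 7 lower, against 1.9% of all genes. With limma-voom 3 were called lower, where 30 of all 17185 genes were called in either direction. Egr1, Arc and Nr4a1, the most abundant members, had log2 fold changes of -0.44, -0.02 and -0.52. Markers of microglia were below 0 in 9 of 10, none at 0 in all libraries, and summed to 523 to 548 CPM in shScr and 456 to 505 CPM in shFabp7. Markers of infiltrating leukocytes, none at 0 in all libraries but 7 of 9 too low to test, summed to 13.3 to 15.8 and 8.73 to 10.8 CPM. Markers of fibroblasts and meninges, none at 0 in all libraries, were below 0 in 8 of 9, with a median of -0.30, and summed to 188.3 to 241.6 CPM in shScr and 146.3 to 188.0 CPM in shFabp7. The sums of these 3 marker lists did not overlap between the groups. None of these 3 sums was highest in shScr library 2, which does not speak for single genes within such cells. Among the shScr libraries, library 2 had the lowest sum of leukocyte markers (13.3 CPM) and of fibroblast and meningeal markers (188.3 CPM). Microglia markers were highest in shScr library 3 (548 CPM). The part of these lists in the Socs3 and Pim1 values was not tested.

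For each of Socs3, Stat3 and Osmr, the 3 genes most alike in pattern were found by Pearson correlation of log2 CPM over 6 libraries among 12186 other genes of at least 5 CPM. For Socs3 these were Rpl34, a ribosomal protein gene, Bin2, a gene of leukocytes and microglia, and Zcchc14 (r = 0.982, 0.981 and 0.980). Bin2 had 10.2, 15.9 and 10.7 CPM in shScr and 6.69, 5.72 and 8.22 CPM in shFabp7, with the same high library as Socs3. For Stat3 they were Gad1, a GABA synthesis gene of inhibitory neurons, Ttll4 and Mchr1, a receptor of melanin-concentrating hormone (r = 0.990, 0.989 and 0.987). Gad1 had 397, 349 and 310.04 CPM in shScr and 309, 331 and 356 CPM in shFabp7. For Osmr they were Itih2, Cacul1 and Hsf2, a heat shock transcription factor gene (r = 0.997, 0.994 and 0.985). These are the highest of 12186 values of r over 6 libraries each, given as a description with no p.

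The ligands of the family were scarce. IL-6 itself was barely detected: Il6 had 1, 2 and 1 reads in shScr and 1, 3 and 2 in shFabp7. Osm had 4, 3 and 5 reads in shScr and 1, 2 and 1 in shFabp7, Il11 had 2, 2 and 4 against 11, 7 and 13, and Cntf had 11, 8 and 14 against 2, 7 and 2. These 4 were below the filter and were not tested. Lif, Clcf1, Ctf1 and Ebi3 had log2 fold changes of 0.05, -0.42, 0.35 and 0.29, with groups that overlapped and adjusted p-values of 0.974, 0.523, 0.596 and 0.777 in edgeR.

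The listed receptors, kinases, STAT factors, negative regulators and adaptors outside the 10 showed no gene past the threshold in edgeR, DESeq2 or limma-voom. Among other receptors, Il11ra1, the alpha receptor of interleukin-11, had means of 24.9 ± 2.81 and 29.8 ± 0.960 CPM in shScr and shFabp7 (SD, n = 3 each), with groups that did not overlap, a log2 fold change of 0.26 ± 0.10 (SE) and an adjusted p of 0.223 in edgeR. Near-identical copies of this gene can take some of its reads, and the value is uncertain. Crlf2, a receptor chain of thymic stromal lymphopoietin, had 0.13, and Il27ra, with 25 reads in shScr and 16 in shFabp7, was not tested. Of 8 other JAK and STAT genes, 0 were at an unadjusted p below 0.05 in edgeR; Stat2, Stat5b and Tyk2, the most abundant, had 0.10, -0.15 and 0.09.

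Of 16 negative regulators other than Socs3, 10 had values above 0, with a median of 0.02, and 2 were at an unadjusted p below 0.05 in edgeR, a share no higher than the 16.8% of all genes tested. These were Ptpn11, which encodes the phosphatase SHP2 and docks at the gp130 site where SOCS3 also binds, at 0.16 ± 0.06 (SE; adjusted p of 0.232 in edgeR), and Ptprt, a receptor phosphatase that acts on STAT3, at 0.22 ± 0.08 (SE; 0.218). Ptpn11 had means of 220.3 ± 9.25 and 246 ± 2.79 CPM (SD, n = 3 each), and both genes had groups that did not overlap. The most abundant SOCS family gene, Socs7, had 0.13. The 16 values ranged from -0.09 to 0.22, and the Socs3 value lay below all of them. The kinase genes Pim2 and Pim3, relatives of Pim1, had -0.12 ± 0.10 and -0.16 ± 0.11 (SE), with groups that overlapped. Of 7 genes of receptor shedding and of the MAPK branch, 1 was at an unadjusted p below 0.05 in edgeR, where 16.8% of all genes tested were: Sos1, a guanine nucleotide exchange factor of Ras, at -0.24 ± 0.08 (SE; adjusted p of 0.198). The sheddase gene Adam10 had 0.04 and the adaptor gene Grb2 0.01.

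Genes often described as STAT3 targets had a median of -0.27, with 16 of 23 tested members below 0, against -0.0065 and 51.5% over all genes tested. In edgeR, 1 was past the threshold (lower, where 0.0582% of all genes tested were called lower) and 10 were at an unadjusted p below 0.05, all lower, against 8.32% of all genes. DESeq2 called 5 lower, against 1.9% of all genes. With limma-voom 2 were called lower, where 30 of all 17185 genes were called in either direction. Neither method called any member of the list higher. The member past the threshold was Fos, which is also an immediate-early gene: its mean was 27.0 ± 6.79 CPM in shScr and 9.77 ± 0.645 in shFabp7 (SD, n = 3 each). Another member that DESeq2 called lower is in the immediate-early list too, and Gfap is also among the astrocyte markers. The lists are therefore not separate. Fos fell by 1.46 on the log2 scale (SE 0.17), with an adjusted p of 0.0382 in edgeR. The adjusted p was above 0.05 with sex as a covariate (0.0800) and without shScr library 3 (0.0516) or shFabp7 library 1, 2 or 3 (0.0872, 0.310 and 0.189), while the log2 fold changes there were -1.39, -1.54, -1.52, -1.42 and -1.46. Gfap, the astrocyte filament gene, had a log2 fold change of -0.79 ± 0.12 (SE), from 267 ± 39.1 to 154 ± 18.1 CPM, with an adjusted p of 0.0597 in edgeR and 1.97e-07 in DESeq2. Bcl2l1, a survival gene, and Vegfa, an angiogenic factor gene, the other abundant members, had 0.07 and 0.11. The list's median lay between -0.33 and -0.20 over the 16 alternatives. Many of these genes have other inducers, and the list does not measure STAT3 activity.

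**Figure D4:**
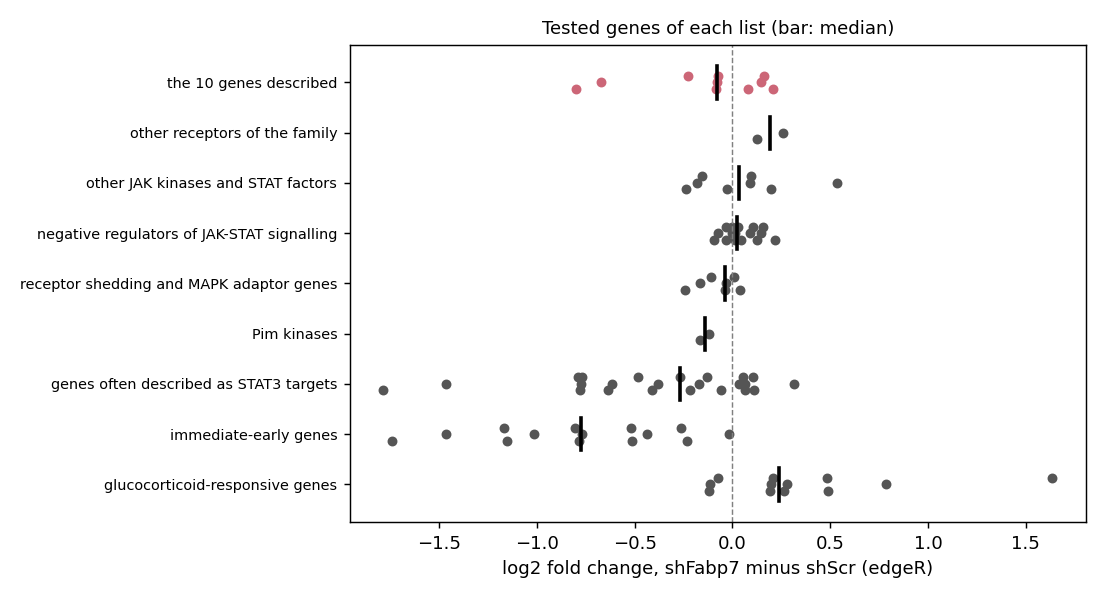
Log2 fold change, shFabp7 minus shScr (x axis, edgeR), of the tested genes of the receptor, signalling and target lists; points are genes and bars medians. The 10 genes described have a median of -0.08, the negative regulators 0.02, the STAT3 target list -0.27 and the immediate-early list -0.78.

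Glucocorticoids act on several genes of this pathway, and of their responsive genes 9 of 12 had values above 0, with a median of 0.24. The median was 0.12 without shFabp7 library 3 and 0.15 without shScr libraries 1 and 3, and it was 0.37, 0.36 and 0.36 without shScr library 2, shScr library 3 and shFabp7 library 1. In edgeR 0 passed and 5 were at an unadjusted p below 0.05, all higher, against 8.44% of all genes. DESeq2 called 4 higher, against 2.35% of all genes, and limma-voom called 0. Klf9 had 0.49 ± 0.13 (SE; adjusted p of 0.165 in edgeR), and Per1 and Sgk1 had -0.12 and 0.21. Their summed level was 683 to 830.4 CPM in shScr and 761 to 1005 CPM in shFabp7, with groups that overlapped.

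**Figure D5:**
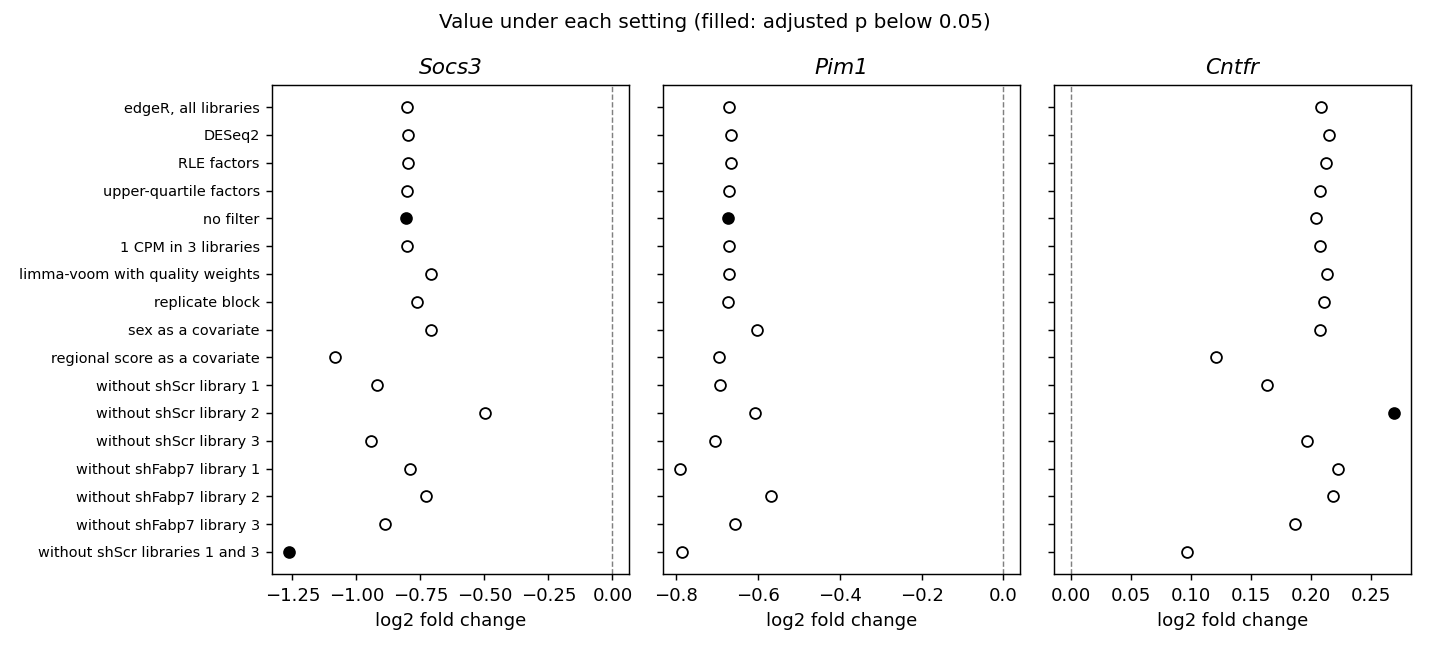
Log2 fold change of Socs3, Pim1 and Cntfr (x axes, scales differ) with all libraries in edgeR and under each of 16 alternatives (y axis); filled points have an adjusted p below 0.05. Socs3 and Pim1 stay below 0 and Cntfr above 0 in all of them. Among the fits with more than 1 shScr library, each gene is past the threshold in 1. The fit without shScr libraries 1 and 3 leaves only shScr library 2 in its group and is read as an effect size only.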

How the data were processed

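mRNA-seq of 6 cortex libraries was analysed. Each deposited file gives unnormalized read counts by gene, with columns as featureCounts writes them, per the file headers. Trimmomatic 0.36, STAR 2.5.2b, Subread 1.5.2, DESeq2 and GRCm39 are listed in the submitters' processing notes without role or order. The positions of 91.4% of shared gene IDs (8 of the 10 genes described) are those of GENCODE M21 on GRCm38, so coordinates are given on GRCm38. The sources used here do not give the strand setting; reads of overlapping genes on opposite strands cannot be told apart. Symbols were found for 48970 of 49315 genes. Levels per kb use the exon length column of the files.

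After filterByExpr and TMM scaling, groups were compared by the quasi-likelihood test of edgeR 4.0.16 (R 4.3.3, robust, two-sided, group as the only term). P-values were adjusted by Benjamini-Hochberg across the 17185 tested genes, and 0.05 was the threshold. The SE was computed from the F statistic, as log2 fold change over the root of F, and intervals use the fit's degrees of freedom. Alternatives were DESeq2 1.42.0, limma-voom with quality weights (limma 3.58.1), scaling by RLE or upper quartile, no filter on low counts or at least 1 CPM in 3 libraries, the replicate number as a block, a threshold of 0.1, libraries left out, and as a covariate the sex (read from Xist against Y-linked genes) or the regional score. Log2 CPM for correlations used a prior count of 2.

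On simulated counts of this comparison (16951 genes, 3 runs) edgeR found 44.7% of the genes set to change 1.5-fold, 74.0% at 2-fold and 92.7% at 4-fold, and 11.3% of its calls were false, above the nominal level. The simulated counts were drawn gene by gene, with no shift shared among genes, such as one of region or sex. These shares therefore may not hold for the real libraries. The genes described, the lists and the alternatives were chosen with earlier results of these data known. Named genes were the 10 described, Fabp7, ligand genes with at least 10 reads and, per list, up to 4 past the threshold and the 3 most abundant, and for Osmr, Stat3 and Socs3 the 3 genes most alike. The values of Fabp7, Gfap and Fos under the alternatives were added after seeing the data. Part of the ligand list is not reported here. Protein sequences were not used here.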

Additional observations from a re-analysis of the deposited data

How the results depend on the processing

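With all libraries in edgeR, 20 genes and 0 of the 10 genes described passed the threshold. The number of all genes was 703 in DESeq2, 1617 with no filter (30935 genes tested), 7 with sex as a covariate, 9 with the regional score, 120 without shScr libraries 1 and 3 and 292 at a threshold of 0.1. Leaving out 1 library at a time gave 0 to 900 genes: 182 without shScr library 1, 900 without shScr library 2, 10 without shFabp7 library 1 and 0 without shFabp7 library 2 or 3. Of the 10 genes described, 2 passed with no filter (Socs3 and Pim1), and 0 to 1 with 1 library left out (Cntfr, without shScr library 2). The cause of these moves was not tested. Without shScr libraries 1 and 3, the spread comes from the shFabp7 libraries, which the remaining shScr library is taken to share. That fit is therefore given by its effect sizes only.

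Socs3 ranged from -1.26 to -0.50, Pim1 from -0.79 to -0.57 and Cntfr from 0.097 to 0.27 over the 16 alternatives, with 1 sign each. With sex as a covariate, which was not balanced between the groups, the 3 values were -0.71, -0.60 and 0.21. Il6st, Lifr and Jak2 also kept their sign. With the regional score, Osmr was 0.018, Jak1 -0.012 and Stat3 0.022. Without shScr libraries 1 and 3, Osmr was 0.019, and leaving out 1 library at a time gave Il6ra values from -0.15 to 0.0081, the latter without shScr library 3.

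The labels give same-numbered libraries a shared number and do not say whether they were paired or handled together. Deviations of same-numbered libraries correlated at 0.081, 0.15 and 0.057, and not every library correlated best with its own number. These values do not settle whether a pairing or a shared batch exists. With the replicate number as a block, 629 genes and 0 of the 10 passed. Socs3, Pim1, Il6ra and Osmr had few reads, and their intervals are the widest of the 10.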
